A study of Rattus norvegicus with 10 samples.

Results

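Of 10 rat lacrimal glands, each measured on 1 array, 5 had almost no signal for Scgb2a1, a secretoglobin, and they are described here. They were chosen by 1 measured value: the intensity of the Scgb2a1 probe set was at or below 1000. They comprised 3 denervated glands, numbered 1, 2 and 5 in the labels, and 2 control glands, contralateral 1 and the sham-operated gland. Denervated glands were taken 7 days after the greater superficial petrosal nerve had been cut. The contralateral gland was taken at the same 7 days, and the sham gland 7 days after its operation. The titles call the first of these controls contralateral while its description places it on the experimental side, and the titles were followed. The labels give no strain, sex or age. They do not state that each gland had its own animal, and a p-value here therefore reflects sample-to-sample spread alone, part of which may be technical. The other 5 glands, denervated 3 and 4 against contralateral 2, contralateral 3 and 1 unoperated gland, appear below only where their own denervated minus control difference was set beside that of the 5 described here.

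The lacrimal gland makes the watery part of the tear film. Its acinar cells build secretory proteins on rough endoplasmic reticulum (ER), store them in granules and release them when parasympathetic and sympathetic nerves signal, while contractile myoepithelial cells wrap the acini. The greater superficial petrosal nerve carries the parasympathetic supply. Secretoglobins are small secreted proteins that some exocrine glands make in very large amounts.

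The selecting values are given as a description. Scgb2a1 had intensities of 72, 122.1 and 154.4 in denervated glands 1, 2 and 5, against 151.1 in contralateral 1 and 109.9 in the sham gland. All 5 lay below 156.2, the intensity under which values were treated as having no order. The highest gland inside the limit read 154.4 and the lowest outside it 74352, so no gland lay near 1000. In the other glands Scgb2a1 read 74352 and 111400 in denervated 3 and 4, against 233234, 360033 and 87856 in contralateral 2, contralateral 3 and the unoperated gland.

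The 5 glands were not alike in other respects. The first principal component of the log2 values held 51.0% of their variance and set denervated 2 and 5 (scores 44.3 and 69.5) apart from denervated 1 (-37.3), contralateral 1 (-40.6) and sham (-35.9). Correlations of log2 intensity, across probe sets, were 0.851 to 0.898 within the set of 3, 0.847 between denervated 2 and 5, and 0.715 to 0.782 between the sets. The value of 0.898 was that of denervated 1 with contralateral 1, which share a number in the labels. Genes are therefore mostly given gland by gland, and each list median also for denervated 1 alone and for denervated 2 and 5 without it. The summed intensity of 8 lacrimal acinar markers was 395424, 227256 and 268401 in denervated 1, 2 and 5, against 672740 and 762478 in contralateral 1 and sham. Dnase1 made up most of the sum in denervated 1 and the controls. On its brighter probe set it read 329146, 13578 and 15271 against 621186 and 721537. The other markers did not all follow it. Aqp5, Csap1, Dmbt1 and Slc12a2 were above both controls in all 3 denervated glands, and Csap1 was high in denervated 2 and 5. Rab3d was below both controls, Chrm3 overlapped and Scgb2a1 was under 156.2. In bulk samples, fewer cells of a type and less RNA per cell cannot be told apart. The summed intensity of 5 myoepithelial markers was 12006, 80781 and 56986 in denervated 1, 2 and 5, against 9384 and 10438 in contralateral 1 and sham. That of 5 fibroblast markers was 43501, 179645 and 545319 against 38859 and 83410, and that of 2 red blood cell markers 37370, 232709 and 259584 against 27006 and 38755. The part of these cells in the results was not tested. The log2 ratio of 3′ to 5′ control probe sets, a sign of RNA integrity, differed by -0.19 for actin, 0.56 for GAPDH and -0.90 for hexokinase (denervated minus control). For GAPDH it was -0.19, 0.009 and 0.021 in denervated 1, 2 and 5, all above -0.58 in contralateral 1 and -0.64 in sham. For hexokinase it was -1.33, 1.66 and 0.21 against 2.23 and -0.065, with overlap, and actin overlapped too. The smallest exact permutation p that 3 glands against 2 allow is 0.1.

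**Figure D1:**
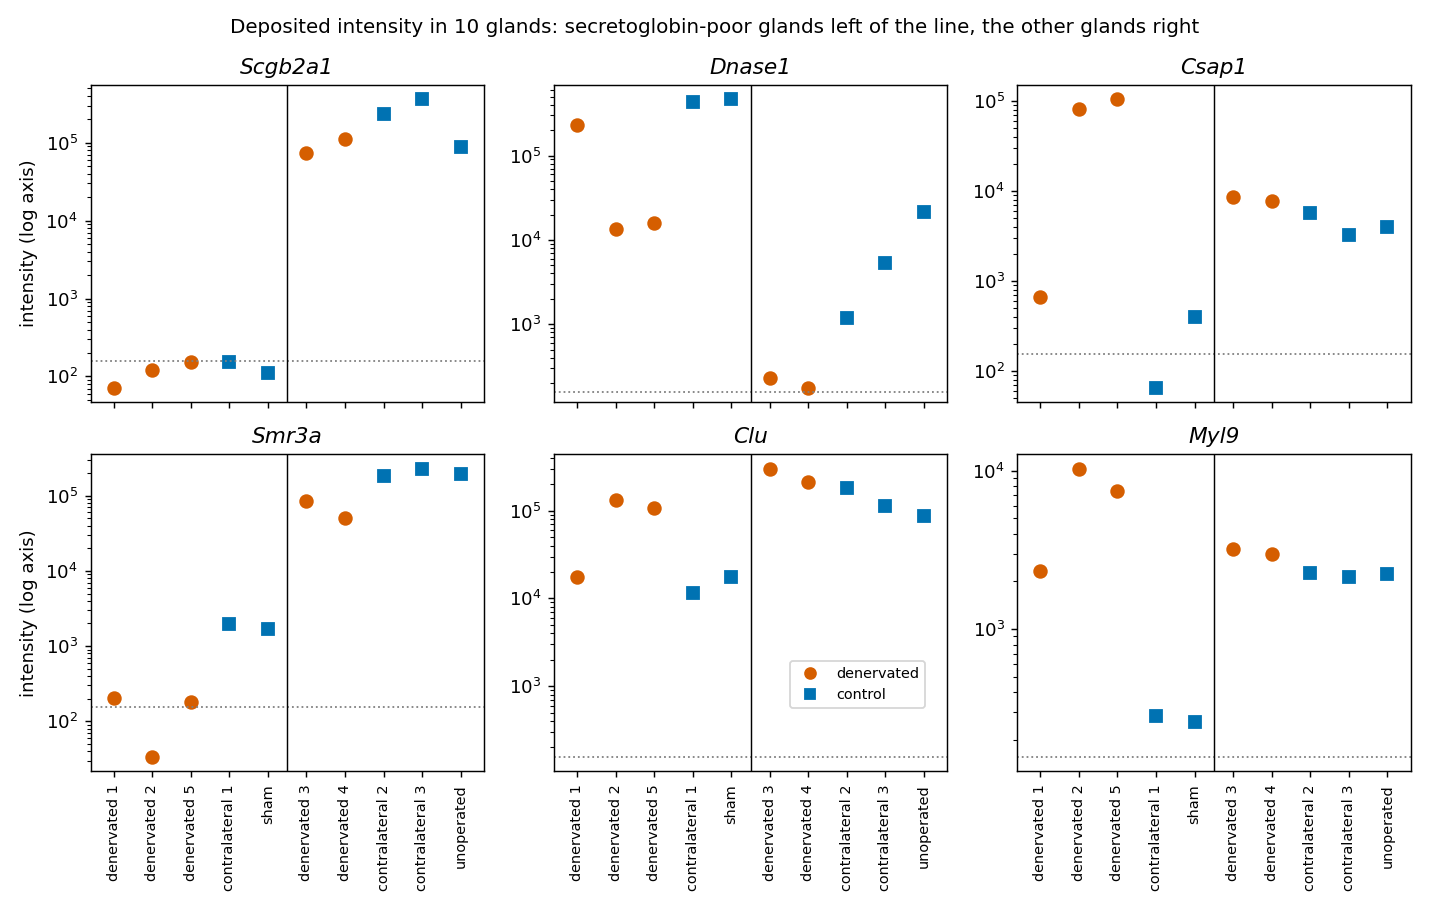
Deposited intensity (log axis) of 6 genes in all 10 glands, 1 point per gland. Circles are denervated and squares control glands, the vertical line separates the 5 secretoglobin-poor glands (left) from the other 5 (right), and the dotted line is the intensity of 156.2 below which values have no order. Scgb2a1 is below that line in the 5 glands on the left, while Dnase1 and Csap1 set denervated 2 and 5 apart from denervated 1 and the controls.

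No probe set passed the test of denervated against control glands. The 12 genes with the smallest p in the higher direction had varied roles and included the contractile genes Myl9, Tagln and Cnn1, and the 12 in the lower direction included Nupr1, Slc7a5, Rrbp1 and Smr3a. Of 6118 probe sets, limma gave 0 (0.00%) at an adjusted p under 0.05, with a smallest adjusted p of 0.731, and 390 (6.37%) at an unadjusted p under 0.05. Of those 390, 219 (3.58%) were higher and 171 (2.80%) lower in denervated glands. All 3 denervated glands lay above both controls for 579 probe sets (9.46%) and below both for 795 (13.0%). With each array's median set equal, the unadjusted calls were 240 higher and 103 lower, and 635 probe sets lay above and 616 below. That scaling moved the median difference over all probe sets to -0.019, against -0.13 as deposited. The balance of unadjusted calls depended on the processing. Without the filter on low values 162 were higher and 260 lower of 8740 probe sets, and with array weights 506 and 516.

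One gland decided the count. Denervated 1 was set apart because its values lay near those of the controls, so tests that leave it out use the outcome to choose the glands. Their p-values are too small and are given as a description of denervated 2 and 5. Without denervated 1, the contrast of denervated 2 and 5 with the 2 controls gave 296 probe sets at an adjusted p under 0.05 in limma, 180 higher (2.94%) and 116 lower (1.90%). Without any other single gland the count was 0, with 158 to 178 probe sets at an unadjusted p under 0.05. Denervated 1 alone against the controls gave 0, with 139 at an unadjusted p under 0.05. In a fit that took its estimate of the spread from all 10 glands, 3 probe sets passed, those of Myl9 and Smr3a and 1 without a gene name.

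The 24 genes with the smallest p, 12 in each direction, had an adjusted p of 0.731 or 0.732 each. They were picked from a contrast that includes denervated 1, so its side is no independent support. Denervated 1 was the closest of the 3 denervated glands to the control mean for 22 of the 24, counting Rock1, for which all 3 denervated glands were below 156.2. It still lay at least 2-fold from the control mean for 20 of them. Without denervated 1, 21 of the 24 had a limma adjusted p under 0.05, against 2.94% of all probe sets higher and 1.90% lower. The exceptions were Smr3a, Zfp697 and Rock1. The contrast that picked the 24 held the same glands, so their passing is largely built into the choice and is no support.

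**Figure D2:**
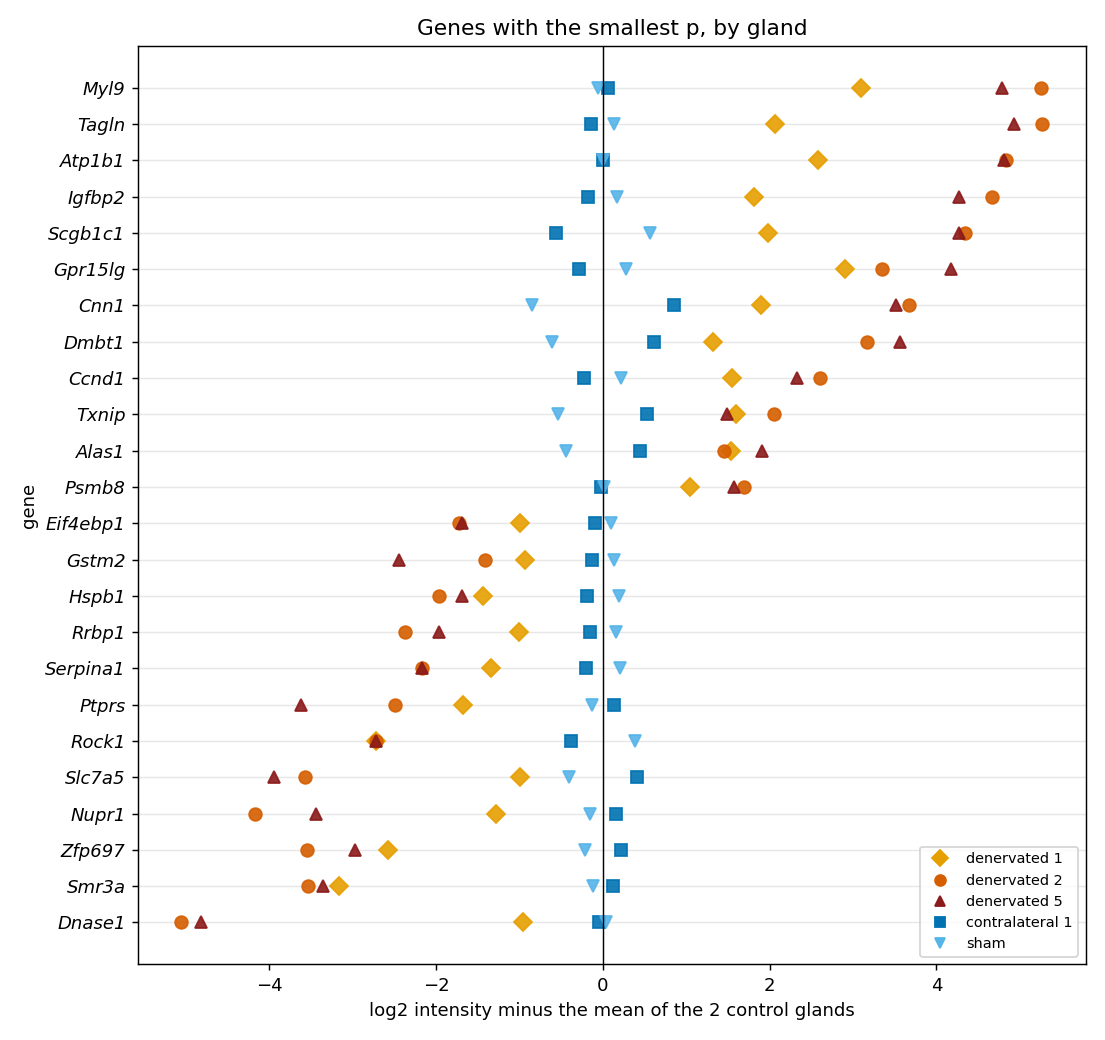
Log2 intensity minus the mean of the 2 control glands for the 24 genes with the smallest p, 1 point per gland. The 3 denervated glands lie on the same side of both controls for each gene, and denervated 1 (diamonds) is nearest to the controls for 22 of 24.

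Genes of contractile cells were among the largest differences. Myl9, a regulatory light chain of smooth muscle and myoepithelial myosin, had intensities of 2314, 10322 and 7484 in denervated 1, 2 and 5, against 281 in contralateral 1 and 260 in the sham gland. Every denervated gland was far above both controls. The log2 difference was 4.38 ± 0.71 (SE), or 20.9-fold, with a limma adjusted p of 0.731. It was 3.10 for denervated 1 alone and 5.02 for denervated 2 and 5 (limma adjusted p = 0.00258 without denervated 1). A second Myl9 probe set gave 1.82 ± 0.82 (SE). Tagln, transgelin, an actin-binding protein of smooth muscle, read 719, 6634 and 5238 in denervated 1, 2 and 5, against 54.3 and 189 in contralateral 1 and sham. Its difference of 4.09 ± 1.00 (SE) was 2.06 for denervated 1 and 5.10 for the other two, while its second probe set gave 1.51. Cnn1, calponin, which damps actomyosin activity, read 1388, 4735 and 4253 in denervated glands, against 672 and 207 in the controls. The groups did not overlap for these 3 genes.

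Acta2, Krt5, Tpm2 and Actg2 were further from the control mean in denervated 2 and 5 than in denervated 1. Acta2, smooth muscle actin, read 4958, 41770 and 27288 in denervated 1, 2 and 5, against 3678 and 5412 in contralateral 1 and sham, so denervated 1 lay between the controls. Krt5, a keratin of basal and myoepithelial cells, read 1654, 18820 and 13023 in denervated glands, against 1446 and 1473 in the controls. The log2 differences of Acta2 and Krt5 were 2.92 and 3.42 in denervated 2 and 5 (limma adjusted p 0.00323 and 0.00203 without denervated 1), and 0.15 and 0.18 in denervated 1. Tpm2, a tropomyosin of muscle thin filaments, read 753, 3743 and 1774 in denervated 1, 2 and 5, against 251 and 599 in contralateral 1 and sham. Its difference was 0.96 in denervated 1, and Krt5, Tpm2 and Actg2 lay above both controls in all 3 denervated glands. Of 19 measured myoepithelial and smooth muscle genes, 14 were higher in denervated glands and 5 lower, while of all 3621 genes measured 1568 were higher and 2053 lower. Among the 19, an unadjusted p under 0.05 was found for 6 higher genes, against 3.58% of all probe sets. The median difference was 0.93, against -0.14 over all genes. The median was 0.15 in denervated 1 and 1.33 in denervated 2 and 5, and without denervated 1 the number higher at an adjusted p under 0.05 was 8, against 2.94% of all probe sets. The CArG box, the site of serum response factor, was in the RefSeq promoter windows (250 bases before to 50 after the start, both strands) of 0 of 14 of these genes and of 1.64% of all 33469 promoters, which says only that those letters are not in these windows.

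Secretory products differed in both directions. Dnase1, a secreted DNA-cutting enzyme of exocrine glands, read 231646, 13577 and 15967 in denervated 1, 2 and 5, against 438127 and 465066 in contralateral 1 and sham. Every denervated gland was below both controls, denervated 1 by the least. The log2 difference was -3.61 ± 1.03 (SE), with -0.96 for denervated 1 and -4.94 for denervated 2 and 5 (limma adjusted p 0.732 in all 5 glands and 4.26e-04 without denervated 1). Csap1, common salivary protein 1, ran the other way, with 670, 81350 and 103875 in denervated 1, 2 and 5, against 66.0 and 397 in contralateral 1 and sham. The log2 difference was 1.43 for denervated 1 and 8.53 for denervated 2 and 5.

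Dmbt1, a mucosal protein that binds bacteria, read 13392, 48181 and 63499 in denervated glands, against 8202 and 3517 in contralateral 1 and sham. The difference was 2.68 ± 0.64 (SE), or 6.42-fold, and 1.32 for denervated 1. Scgb1c1, a secretoglobin of another subfamily, was higher in all 3 denervated glands, with 910, 4695 and 4441 against 125 and 342 in the controls. Lcn2, lipocalin 2, an iron-scavenging defence protein, differed by 4.69 ± 1.39 (SE), but its controls lay far apart, at 7578 in contralateral 1 and 149 in sham, and denervated 1 read 7443. The difference was 1.89 against contralateral 1 alone and 7.49 against sham alone. Of 18 measured lacrimal and tear proteins, 13 were higher in denervated glands and 5 lower, against 1568 higher and 2053 lower of all 3621 genes. Their median was 0.96 (0.27 in denervated 1, 1.56 in denervated 2 and 5).

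Most of the measured proteins listed as salivary had lower values. Smr3a, a submaxillary gland androgen regulated protein, read 203, 33.6 and 178 in denervated 1, 2 and 5, against 1975 and 1671 in contralateral 1 and sham. All 3 denervated glands were near or under the 156.2 limit, so the 10.2-fold lower level understates the change. Its difference was -3.35 ± 0.80 (SE), with -3.17 in denervated 1 and -3.45 in denervated 2 and 5. Car6, a secreted carbonic anhydrase, was lower than both controls in denervated 2 and 5 and not in denervated 1, with 27344, 1527 and 1728 in denervated glands, against 27793 and 16562 in the controls. Of 9 measured salivary proteins, 7 were lower, against 2053 of all 3621 genes, and an unadjusted p under 0.05 was found for 4 lower ones, against 2.80% of all probe sets. These counts depend on the placing of genes. The 9 included Aqp5, also a lacrimal acinar marker here, while Csap1, which was higher, was counted with the lacrimal and tear proteins. The median of the 9 was -1.68 (-0.077 in denervated 1, -2.10 in denervated 2 and 5). Aqp5, the water channel of the acinar cell surface, was higher, by 0.90 ± 0.37 (SE), with 0.89 in denervated 1 and 0.91 in denervated 2 and 5.

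Most genes of the machinery that folds and exports secretory proteins had lower values, further from the controls in denervated 2 and 5 than in denervated 1. Rrbp1, which anchors ribosomes to the rough ER, read 8549, 3309 and 4389 in denervated 1, 2 and 5, against 15440 and 19066 in contralateral 1 and sham. All 3 denervated glands were below both controls, by -1.78 ± 0.45 (SE) on the log2 scale. Hspa5, the ER chaperone BiP, read 27154, 13012 and 15290 in denervated glands, against 30649 and 44194 in the controls, a difference of -1.07 ± 0.41 (SE) that was -0.44 in denervated 1. Calr, calreticulin, a chaperone of glycoproteins, gave -1.37, -1.54 and -1.50 on its 3 probe sets with the lowest p. Ero1b, the oxidase that drives disulfide formation, read 13699, 4517 and 3412 in denervated glands, against 15001 and 15577 in the controls. Serp1, which stabilises new membrane proteins in the ER, read 96136, 18041 and 21962 against 120655 and 125486. For Hspa5, Ero1b and Serp1 denervated 1 sat just below the controls and the other two well below.

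The promoters of ER chaperone genes carry a known shared element, the ER stress response element, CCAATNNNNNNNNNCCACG, to which the unfolded protein response factors bind. In the RefSeq promoter windows used here (250 bases before to 50 after the start, assembly GRCr8, both strands searched), it was found in 5 of 25 ER chaperone and folding genes, against 22 of 33469 promoters (0.0657%). The 5 were Calr, Canx, Ero1b, Hsp90b1 and Hspa5. The list was drawn up from ER chaperone and folding genes, from which this element is known, so this share describes the list and says nothing of the glands. The part of the element in the lower values was not tested. The windows of the 3 genes described above are printed on the gene's strand, with the element in capitals.
Hspa5, chr3:38452766-38453065, plus strand: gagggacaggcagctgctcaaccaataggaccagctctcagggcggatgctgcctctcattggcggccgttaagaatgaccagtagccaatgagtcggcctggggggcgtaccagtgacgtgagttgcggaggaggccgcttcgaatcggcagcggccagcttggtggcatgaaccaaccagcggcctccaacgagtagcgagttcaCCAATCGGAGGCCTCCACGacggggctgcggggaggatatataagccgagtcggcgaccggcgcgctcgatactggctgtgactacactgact
Calr, chr19:40213117-40213416, plus strand: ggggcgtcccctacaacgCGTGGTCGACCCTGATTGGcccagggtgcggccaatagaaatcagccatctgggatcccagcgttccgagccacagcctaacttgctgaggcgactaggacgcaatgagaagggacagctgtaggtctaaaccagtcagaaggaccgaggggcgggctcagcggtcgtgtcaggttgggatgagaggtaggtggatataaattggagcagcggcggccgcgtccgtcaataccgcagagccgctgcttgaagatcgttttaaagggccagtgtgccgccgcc
Ero1b, chr17:92941432-92941731, plus strand: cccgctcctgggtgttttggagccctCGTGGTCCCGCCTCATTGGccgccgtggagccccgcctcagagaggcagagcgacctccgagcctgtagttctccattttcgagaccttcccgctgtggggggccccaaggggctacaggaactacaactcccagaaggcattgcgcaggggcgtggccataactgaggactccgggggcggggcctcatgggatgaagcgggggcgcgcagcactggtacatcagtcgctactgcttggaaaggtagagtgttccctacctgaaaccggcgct
The element begins 43 bases before the start in Hspa5, 232 before it in Calr and 224 before it in Ero1b, and reads on the opposite strand in Calr and Ero1b.

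Of 27 ER chaperones and folding enzymes, 19 were lower in denervated glands and 8 higher, 7 lower at an unadjusted p under 0.05 (2.80% of all probe sets), with a median of -0.36. The median was -0.048 in denervated 1 and -0.53 in denervated 2 and 5, where 8 of the 27 were lower at an adjusted p under 0.05, against 1.90% of all probe sets. Of 20 translocation and glycosylation genes, 17 were lower, with a median of -0.69 (-0.019 in denervated 1, -0.99 in denervated 2 and 5). Of 60 exocytosis and vesicle traffic genes, 48 were lower and 12 higher, with a median of -0.48 (-0.14 in denervated 1, -0.77 in denervated 2 and 5). Furin, a protease that cuts precursor proteins in the secretory route, read 134754, 30231 and 33310 in denervated glands, against 176487 and 197688 in the controls. Ica1, a protein of secretory vesicle membranes, read 5628, 3437 and 3551 against 9727 and 9911. Ica1 was lower in each denervated gland by a log2 difference of 0.80 or more.

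Most amino acid transport, tRNA charging and polyamine genes had lower values. Slc7a5, the light chain of the large neutral amino acid transporter, read 18219, 3068 and 2365 in denervated 1, 2 and 5, against 48051 and 27441 in contralateral 1 and sham, a difference of -2.83 ± 0.76 (SE). Its heavy chain partner Slc3a2 gave -1.01 ± 0.42 (SE). Eif4ebp1, a repressor of cap-dependent translation, read 8309, 4977 and 5126 in denervated glands, against 15426 and 17594 in the controls. Of 27 amino acid transport, tRNA charging and polyamine genes, 19 were lower, with a median of -0.52 (-0.11 in denervated 1, -0.64 in denervated 2 and 5). Ribosomal proteins leaned the other way. Of 37, 34 were higher, against 1568 of all 3621 genes, with a median of 0.53 (0.17 in denervated 1, 0.58 in denervated 2 and 5), and 0 had an unadjusted p under 0.05. All 3 denervated glands lay above both controls for 18 of the 37, against 340 of all 3621 genes and 9.46% of all probe sets.

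Heat shock, glutathione and antioxidant genes as a list did not lean one way, with 23 higher and 25 lower of 48 and a median of -0.049 (-0.062 in denervated 1, -0.040 in denervated 2 and 5). Nupr1, a stress-induced nuclear protein first known from pancreatic acinar cells, read 47913, 6462 and 10754 in denervated 1, 2 and 5, against 129234 and 104519 in contralateral 1 and sham. Its difference was -2.96 ± 0.71 (SE), or 7.78-fold lower. Hspb1, a small heat shock protein, read 3823, 2656 and 3226 in denervated glands, against 9082 and 11820 in the controls, with a difference of -1.44 in denervated 1 and -1.82 in denervated 2 and 5. The brighter Hspb1 probe set used in the list gave -0.64 in denervated 1 and -1.78 in denervated 2 and 5. Further ones gave -0.53 and -1.67 over all 3 denervated glands. Gstm2, a glutathione transferase, differed by -1.59 ± 0.45 (SE), and by -0.79 ± 0.36 (SE) on the brighter probe set used in the list. Serpina1, the inhibitor of neutrophil elastase, read 23452, 13202 and 13276 in denervated glands, against 51754 and 68313 in the controls. For Nupr1, Hspb1, Gstm2 and Serpina1 all 3 denervated glands lay below both controls. Nupr1 and Serpina1 were not members of the list. It held glutathione transferases with higher values too. Gstt1 read 1038, 1786 and 3111 in denervated 1, 2 and 5, against 615 and 383 in contralateral 1 and sham, a difference of 1.89 ± 0.74 (SE). Mgst1, a membrane-bound one, differed by 2.21 ± 0.96 (SE), with -0.22 in denervated 1.

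Most MHC class I and interferon genes had higher values in denervated 2 and 5, and some in all 3 denervated glands. Psmb8, a subunit of the immunoproteasome that cuts peptides for MHC class I, read 7330, 11483 and 10532 in denervated 1, 2 and 5, against 3507 and 3594 in contralateral 1 and sham. Its difference was 1.44 ± 0.37 (SE), or 2.71-fold, and 1.05 in denervated 1. Cxcl10, an interferon-induced chemokine, read 790, 370 and 1001 in denervated glands, against 154 and 108 in the controls. Irf7, the factor that amplifies the interferon response, read 463, 6239 and 3361 in denervated 1, 2 and 5, against 444 and 555 in contralateral 1 and sham, so denervated 1 lay between the controls, and a second Irf7 probe set gave -0.79. Casp1, which activates interleukin 1β, read 1499, 1737 and 3364 against 465 and 190, with smaller differences of 0.94 and 0.096 on its other probe sets. Of 23 MHC class I and interferon genes, 21 were higher in denervated glands, against 1568 of all 3621 genes, and an unadjusted p under 0.05 was found for 5 higher genes, against 3.58% of all probe sets. The median was 0.55. That median was -0.10 in denervated 1, where 11 of the 23 were higher, and 0.89 in denervated 2 and 5, where 4 were higher at an adjusted p under 0.05, against 2.94% of all probe sets.

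Interferon-induced promoters often hold repeats of GAAA, the core of the site that interferon regulatory factors bind. The spaced pair GAAANNGAAA, searched on both strands, was found in 14 of 22 promoters of this list, against 1312 of 33469 promoters (3.92%). The list was drawn up from genes known to respond to interferon, so this share describes the list and says nothing of the glands. The windows of the 3 genes described above are printed as before, with the pair in capitals.
Psmb8, chr20:4656982-4657281, minus strand: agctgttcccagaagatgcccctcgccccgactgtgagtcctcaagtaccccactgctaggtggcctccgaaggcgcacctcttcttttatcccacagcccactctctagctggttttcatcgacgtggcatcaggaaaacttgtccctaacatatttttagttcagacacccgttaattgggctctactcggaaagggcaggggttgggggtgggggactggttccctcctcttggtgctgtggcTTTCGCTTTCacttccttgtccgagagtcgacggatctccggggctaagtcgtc
Cxcl10, chr14:15988816-15989115, plus strand: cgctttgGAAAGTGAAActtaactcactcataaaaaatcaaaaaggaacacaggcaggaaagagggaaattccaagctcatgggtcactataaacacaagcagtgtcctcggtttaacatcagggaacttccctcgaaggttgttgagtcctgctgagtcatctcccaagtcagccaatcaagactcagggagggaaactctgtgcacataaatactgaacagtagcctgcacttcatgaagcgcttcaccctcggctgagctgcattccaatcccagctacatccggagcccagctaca
Irf7, chr1:205799974-205800273, minus strand: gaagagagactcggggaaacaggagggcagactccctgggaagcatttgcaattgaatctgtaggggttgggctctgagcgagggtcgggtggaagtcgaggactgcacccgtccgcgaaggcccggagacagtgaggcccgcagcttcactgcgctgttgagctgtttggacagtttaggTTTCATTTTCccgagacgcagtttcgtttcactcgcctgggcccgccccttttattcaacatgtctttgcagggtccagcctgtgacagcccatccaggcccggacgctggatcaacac
The pair begins 4 bases before the start in Psmb8, 69 before it in Irf7 and 243 before it in Cxcl10.

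Most macrophage genes had higher values, and complement genes were divided. Aif1, a macrophage actin-binding protein, read 516, 1423 and 820 in denervated 1, 2 and 5, against 190 and 128 in contralateral 1 and sham, on the probe set with the lower p, and 0.91 ± 0.69 (SE) was the difference on the other. Apoe, which macrophages and glial cells secrete, read 39759, 274914 and 284836 in denervated glands, against 22032 and 28393 in the controls. Of 20 macrophage and monocyte genes, 16 were higher, with a median of 0.74 (0.26 in denervated 1, 1.01 in denervated 2 and 5). C3, the central complement protein, read 3909, 32018 and 20831 in denervated glands, against 4896 and 1298 in the controls, so denervated 1 lay within the controls. Of 13 complement genes, 7 were higher and 6 lower, with a median of 1.06 (-0.011 in denervated 1, 1.69 in denervated 2 and 5). Of 10 MHC class II genes, 8 were higher, with a median of 0.73 (-0.10 in denervated 1, 1.19 in denervated 2 and 5). Clu, clusterin, a secreted chaperone that also inhibits complement, read 17647, 131398 and 108047 in denervated glands, against 11467 and 17410 in the controls. T and natural killer cell markers were divided, with 10 higher and 11 lower of 21 and a median of -0.056 (-0.011 in denervated 1, 0.022 in denervated 2 and 5). Coro1a, an actin-binding protein of leukocytes, had the smallest p of them and read 542, 2138 and 2512 in denervated 1, 2 and 5, against 78.4 and 107 in contralateral 1 and sham. Its difference was 3.19 ± 0.92 (SE), and those of Cd48 and Cd53, leukocyte surface proteins, were 1.89 and 1.09. Cd3g, a chain of the T cell receptor complex, read 7423, 1415 and 2151 in denervated glands, against 11007 and 10725 in the controls, a difference of -1.94 ± 0.63 (SE).

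Matrix and blood genes set denervated 2 and 5 apart from denervated 1. Mgp, matrix Gla protein, an inhibitor of calcification, read 4346, 45468 and 36911 in denervated 1, 2 and 5, against 2191 and 3378 in contralateral 1 and sham. Of 46 extracellular matrix genes, 30 were higher, with a median of 0.51, but the median was -0.58 in denervated 1 and 0.87 in denervated 2 and 5. Hbb, the β chain of hemoglobin, read 32759, 222087 and 253653 in denervated glands, against 23959 and 34108 in the controls, so denervated 1 lay between the controls. Of 7 blood cell genes, 5 were higher, with a median of 1.64 (0.12 in denervated 1, 2.37 in denervated 2 and 5).

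**Figure D3:**
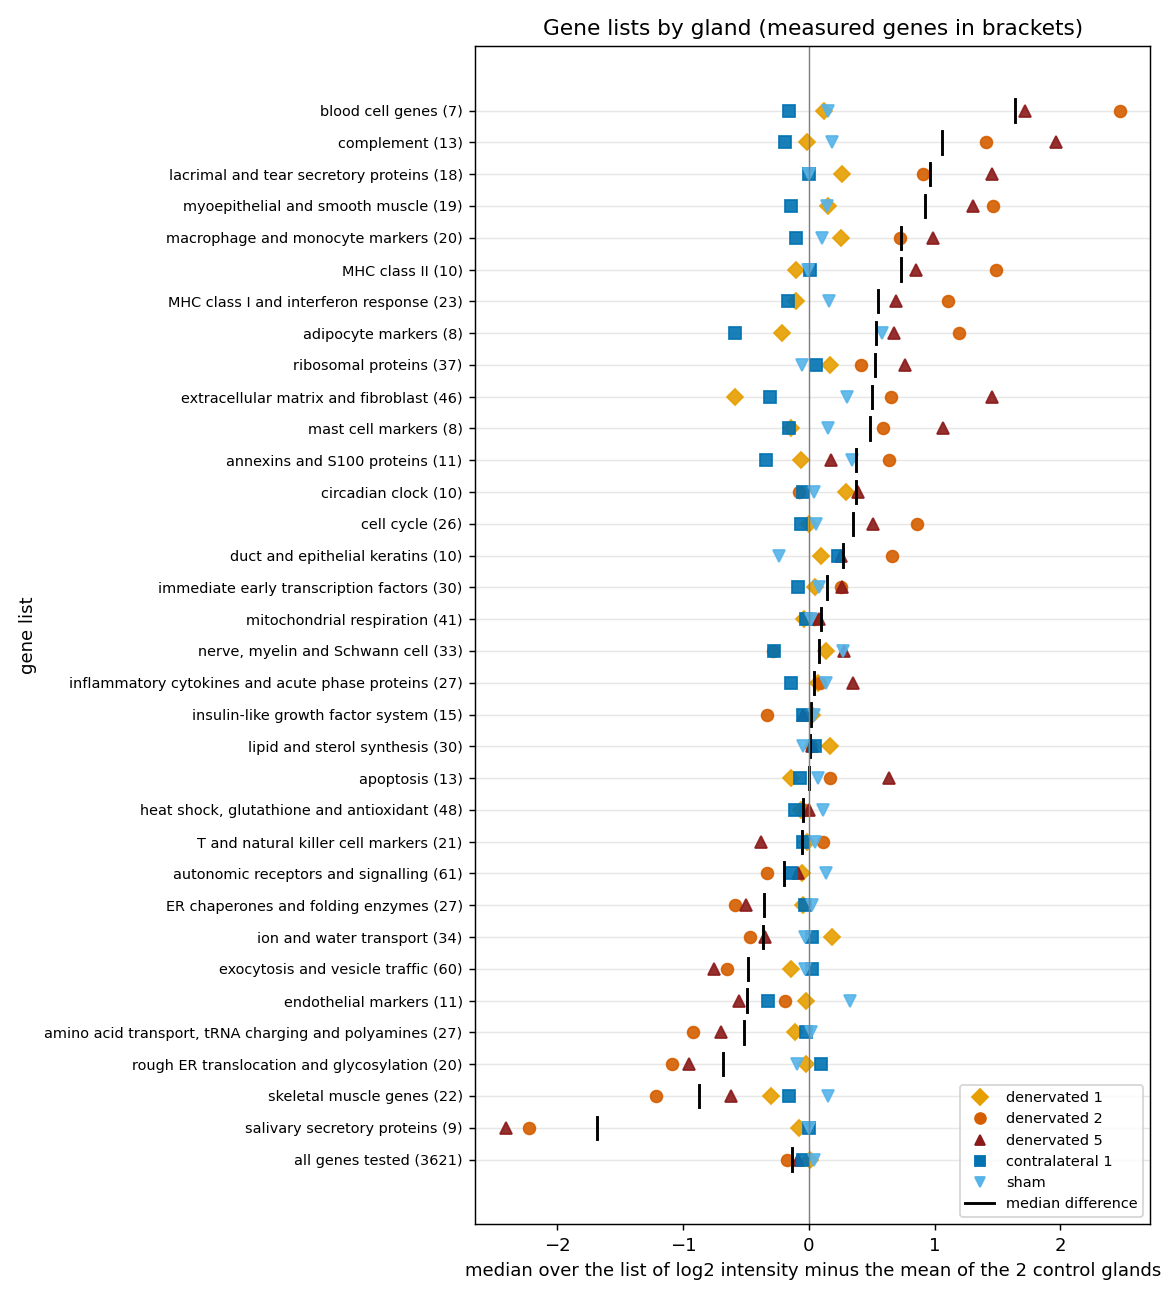
Median over each gene list of the log2 intensity minus the mean of the 2 control glands, 1 point per gland, with the number of measured genes in brackets. Black bars are the median difference between denervated and control glands. For most lists denervated 1 (diamonds) lies near the controls, as for ER chaperones (-0.048) and complement (-0.011), while denervated 2 and 5 lie apart from them.

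As given above, denervated 1 lay at least 2-fold from the control mean for 20 of the 24 genes with the smallest p. More of these 20 follow, all picked from a contrast that includes denervated 1. Gpr15lg, the ligand of the lymphocyte-homing receptor GPR15, read 1959, 2672 and 4723 in denervated 1, 2 and 5, against 216 and 319 in contralateral 1 and sham, a difference of 3.47 ± 0.70 (SE), or 11.1-fold, with 2.90 in denervated 1. Alas1, the first enzyme of heme synthesis, read 17195, 16200 and 22174 in denervated glands, against 8032 and 4337 in the controls. Txnip, an inhibitor of thioredoxin, read 26762, 36720 and 24833 against 12836 and 6112. For Alas1 and Txnip the 3 denervated glands lay close together above both controls. Ccnd1, cyclin D1, which starts the cell cycle, read 2317, 4811 and 3963 in denervated glands, against 676 and 921 in the controls, but 2 of its other probe sets gave -0.56 and -0.61. Ptprs, a receptor tyrosine phosphatase, read 1274, 720 and 332 against 4453 and 3710, while its other probe set gave 0.29. Rock1, a kinase that promotes actomyosin contraction, read 75.1, 94.8 and 107 in denervated glands, against 789 and 1346 in the controls, with all 3 denervated values below 156.2.

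Other large differences were in Atp1b1 and Igfbp2. Atp1b1, the β subunit of the sodium pump, read 933, 4469 and 4400 in denervated 1, 2 and 5, against 34.4 and 72.8 in contralateral 1 and sham, both controls being below 156.2. Igfbp2, an insulin-like growth factor binding protein, read 729, 5261 and 4003 in denervated glands, against 183 and 234 in the controls. A brighter Igfbp2 probe set gave 2.13 ± 0.67 (SE), with 0.85 in denervated 1. The levels of Atp1b1 and Igfbp2 in the other glands are given below. Zfp697, a zinc finger protein, read 307, 109 and 234 against 2126 and 1573.

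By the widest gap between the groups, 16 genes were named, 8 in each direction. In the higher direction this added Pcolce, an enhancer of procollagen processing, with 1449, 1341 and 2994 in denervated glands, against 98.1 and 353 in the controls, and Slco2a1, a prostaglandin transporter, with 794, 1737 and 1121 against 142 and 137. Vegfa, the endothelial growth factor, read 1001, 779 and 1135 in denervated glands, against 75.2 and 165 in the controls, but its other probe sets gave -0.34 and -1.70. Wt1, a zinc finger factor, read 919, 629 and 654 against 106 and 152. In the lower direction it added Rtn4ip1, Nup98, Grin2d, Gabbr2 and Prap1, with log2 differences of -2.53, -2.46, -2.42, -2.48 and -2.31. Nup98, a nuclear pore protein, had other probe sets at 0.19 and 2.53. Each of these except Prap1 had at least 1 denervated gland below 156.2.

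Receptors through which nerves drive secretion showed no difference past the test, and their errors were wide. Chrm3, the muscarinic receptor of lacrimal acinar cells, read 4859, 3412 and 3182 in denervated 1, 2 and 5, against 4884 and 4334 in contralateral 1 and sham, a difference of -0.30 ± 0.41 (SE) that was 0.079 in denervated 1. A second Chrm3 probe set gave -0.37 ± 1.00 (SE). Chrm1 differed by -0.96 ± 0.96 (SE), Adra1a, an α1 adrenergic receptor, by -0.83 ± 1.05 (SE) and Vipr1, a receptor of vasoactive intestinal peptide, by -1.46 ± 0.83 (SE). Rab3d, a granule GTPase of acinar cells, gave -0.78 ± 0.43 (SE). Of 61 autonomic receptor and signalling genes, 24 were higher and 37 lower, with a median of -0.20 (-0.054 in denervated 1, -0.27 in denervated 2 and 5). Prkaca, the catalytic subunit of protein kinase A, had the smallest p of the list, with 4442, 1027 and 2127 in denervated glands, against 9103 and 7150 in the controls. Of 33 nerve, myelin and Schwann cell genes, 18 were higher and 15 lower, with a median of 0.083 (0.14 in denervated 1, 0.055 in denervated 2 and 5). Tac1, the precursor of substance P, read 1613, 1403 and 1071 against 533 and 166.

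The remaining lists had 0 members past the adjusted threshold, like those above. For mast cell markers (8 genes) the median was 0.49, with -0.14 in denervated 1 and 0.68 in denervated 2 and 5. For adipocyte markers (8) it was 0.53, with -0.21 and 0.61 in those glands, and for annexins and S100 proteins (11) 0.38, with -0.065 and 0.73. Ion and water transport genes (34) had a median of -0.36, with 0.18 in denervated 1 and -0.55 in denervated 2 and 5. In each of these lists denervated 1 lay on the opposite side of the control mean from the other two. The sign also differed, with smaller medians, for mitochondrial respiration (41 genes, 0.095, with -0.041 in denervated 1 and 0.13 in denervated 2 and 5), apoptosis (13 genes, 0.004, with -0.14 and 0.30) and the insulin-like growth factor system (15 genes, 0.019, with 0.025 and -0.13). For lipid and sterol synthesis (30 genes, 0.009, with 0.17 and -0.18) and inflammatory cytokines and acute phase proteins (27 genes, 0.043, with 0.076 and -0.075), it differed only when denervated 2 and 5 were averaged. Taken gland by gland, these medians were positive in denervated 1, 2 and 5. They were 0.17, 0.019 and 0.029 for lipid synthesis and 0.076, 0.087 and 0.35 for cytokines. The sign was shared for duct keratins (10 genes, 0.27, with 0.095 in denervated 1 and 0.64 in denervated 2 and 5), cell cycle genes (26 genes, 0.35, with 0.003 and 0.40), circadian clock genes (10 genes, 0.38, with 0.30 and 0.28) and immediate early factors (30 genes, 0.15, with 0.051 and 0.25). It was shared too for endothelial markers (11 genes, -0.49, with -0.019 and -0.68) and skeletal muscle genes (22 genes, -0.87, with -0.30 and -1.05). Taken gland by gland, the circadian clock median was negative in denervated 2, at -0.081. Only 2 B and plasma cell genes were measured, with a median of -0.073 (-0.42 in denervated 1, 0.10 in denervated 2 and 5). Fos, an immediate early factor, read 1057, 4974 and 1181 in denervated glands, against 352 and 390 in the controls on one probe set, while its other probe sets gave -0.95 and -0.30.

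The other 5 glands gave a further denervated minus control difference, whose controls held an unoperated gland and no sham gland. Their arrays entered the results above through the floor, the filter on low values and the fit over all 10 glands. They also entered through the choice of the brightest probe set per gene for lists and marker sums, made over all 10 arrays. Over all 6118 probe sets, the difference had the same sign in both sets of glands for 63.2%, and for 306 of the 390 (78.5%) with an unadjusted p under 0.05. Across probe sets the 2 differences had a Pearson correlation of 0.298 and a Spearman correlation of 0.302, as a description, since probe sets are not independent replicates. Of the 24 genes with the smallest p, 19 had the same sign in the other glands, and 9 were separated there the same way, against 10.8% of all probe sets above and 15.1% below. An unadjusted p under 0.05 in the other glands with the same sign was found for 7 of the 24, against 1.75% of all probe sets higher and 2.76% lower there.

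Dmbt1 read 21979 and 21357 in denervated 3 and 4, against 10525, 4521 and 5159 in contralateral 2, contralateral 3 and the unoperated gland, a difference of 1.79 ± 0.59 (SE). Psmb8 read 12154 and 11840 in those denervated glands, against 6221, 5640 and 7501 in their controls. Rrbp1 read 4625 and 5096 against 9896, 23589 and 10260. These 3 genes were separated in the same direction in both sets of glands. Dnase1 read 228 and 178 in denervated 3 and 4, against 1202, 5360 and 21433 in their controls, a difference of -4.68 ± 1.13 (SE). Smr3a read 85972 and 51240 against 181054, 229314 and 192415, so it was lower in the denervated glands of both sets although its level was far higher in the other glands. Txnip differed by 1.46 ± 0.53 (SE) in the other glands, with overlap, and Rock1 by -1.66 ± 0.72 (SE).

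**Figure D4:**
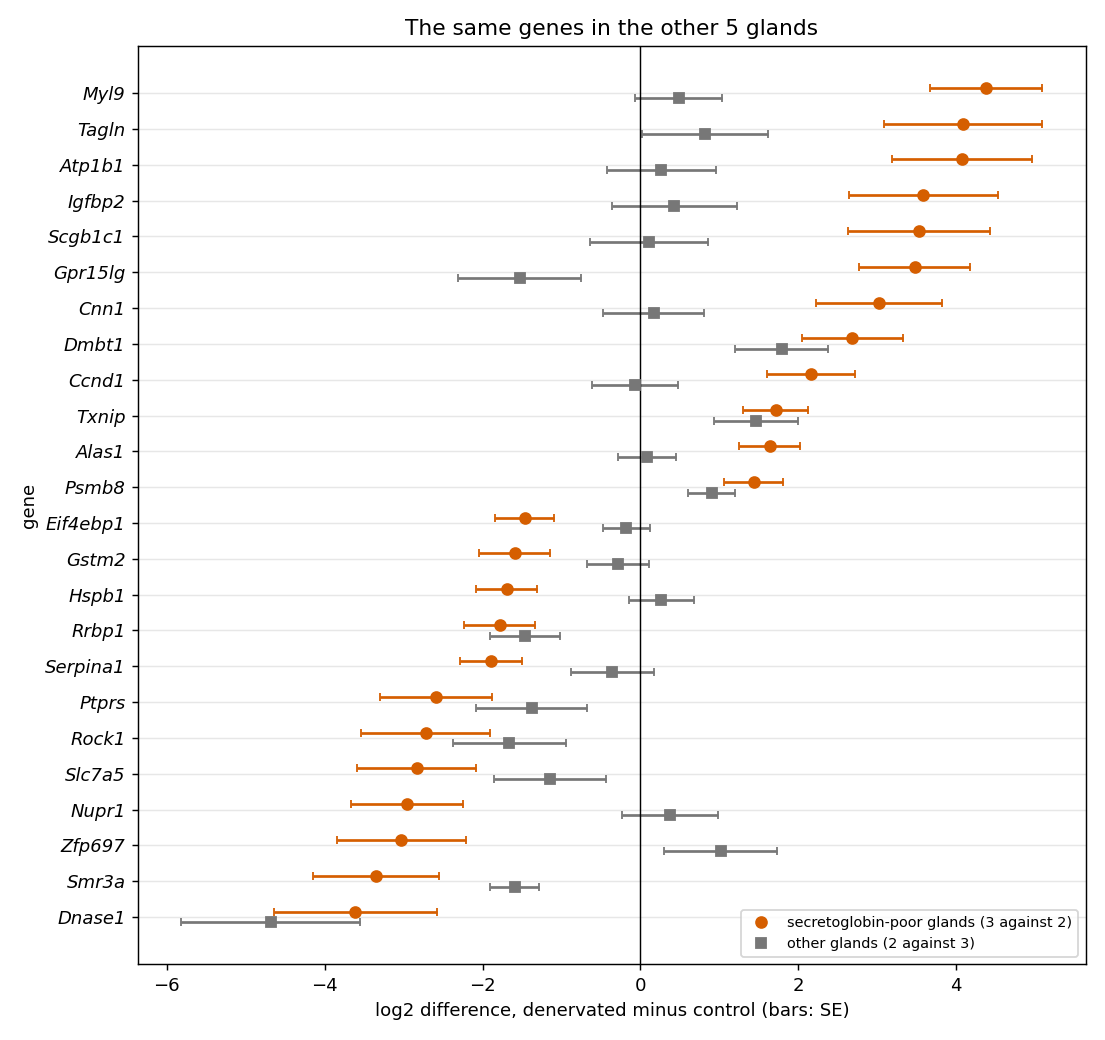
Log2 difference, denervated minus control, with its standard error, for the same 24 genes in the secretoglobin-poor glands (circles) and in the other 5 glands (squares). In the other glands 19 of 24 have the same sign, and Myl9, Tagln, Atp1b1 and Igfbp2 lie within 1 of 0 there.

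Myl9 read 3212 and 3001 in denervated 3 and 4, against 2278, 2143 and 2237 in contralateral 2, contralateral 3 and the unoperated gland, a difference of 0.49 ± 0.55 (SE). The difference between the 2 sets of glands was 3.90 ± 0.78 (SE), with a limma adjusted p of 0.826. Across all probe sets this test of the difference passed for 0 of 6118 (0.00%), and 180 (2.94%) had an unadjusted p under 0.05, 104 with a more positive and 76 with a more negative difference in the secretoglobin-poor glands. Without denervated 1 the count at an adjusted p under 0.05 was 55. The named genes with more positive differences were Myl9, Gpr15lg (5.00), Atp1b1 (3.81), Ubtf (2.80), Rheb (4.33) and Ngfr (2.60), the last a neurotrophin receptor. Those with more negative ones were Nupr1 (-3.34), Smr3a (-1.76), Zfp697 (-4.05), Nos2 (-3.46), Acta1 (-5.02) and Ckm (-4.68). Atp1b1 read 1630 and 1605 in denervated 3 and 4, against 1884, 1443 and 894 in their controls. Denervated 1, at 933, lay within the range of those controls. Igfbp2, on the probe set with intensities above, read 2254 and 2002 against 2615, 1941 and 774, and denervated 1, at 729, lay below those controls. Ngfr overlapped between denervated and control among the secretoglobin-poor glands, with 3219, 5338 and 2143 against 2855 and 2984, and was lower in the other denervated glands, with 2127 and 895 against 7578, 7810 and 6695. A second Ngfr probe set gave -0.064 ± 0.54 (SE) in the secretoglobin-poor glands.

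Among lists, ER chaperones (-0.66), translocation and glycosylation (-0.46), MHC class I and interferon (0.90), macrophage (0.75) and complement genes (1.06) had medians in the other glands of the same sign as in the secretoglobin-poor ones. For MHC class I and interferon, 23 of 23 genes were higher there. The myoepithelial median was 0.22 there, that of blood cell genes -0.45 and that of skeletal muscle genes 0.78. The summed intensity of 7 skeletal muscle markers was 5362, 2155 and 2091 in denervated 1, 2 and 5, against 5709 and 11764 in contralateral 1 and sham, and 11399 and 18932 in denervated 3 and 4, against 3031, 3389 and 3385 in their controls. The part of muscle in the results on Acta1 and Ckm was not tested.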

How the data were processed

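Each gland gave total RNA for 1 Affymetrix rat array. Intensities were deposited on a linear scale, 1 per probe set, and the authors had scaled them to a common level, as the values show: array means after trimming 2% from either tail were 2505 to 2507. For the software, detection calls and build, the entry is: not given in the sources used here. No genome was used, and gene names came from the platform annotation, with 6985 of 7006 single-symbol probe sets found in a RefSeq table of GRCr8. The 308 probe sets with several symbols and 1426 with none were tested but not named.

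A floor of 156.2, the 20th percentile over all arrays, was applied before log2. Of 8799 probe sets, 59 array controls were left out, and those with a mean log2 over the 10 arrays above the 30th percentile, 6118, were tested. The contrast was fitted with limma 3.58.1 in R 4.3.3 (variance trend, two-sided, Benjamini-Hochberg over all 6118, threshold 0.05, 3 residual degrees of freedom). A fit of 4 classes over 10 arrays (6 residual degrees of freedom) gave the contrast in the other glands and the difference between the sets. Precision is limited by how few arrays there are, with a median standard error of 0.74 per difference. Sets of glands made by a measured level are not the study's groups. Lists took 1 probe set per gene, the brightest, and were counted without a test. The steps were tested on simulated data. Figures used matplotlib 3.10.9.

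Named genes were the 12 smallest p in each direction, the 8 widest gaps in each direction, 6 in each direction by p for the difference between sets, up to 6 members of a list by p, fixed receptor and secretion genes, and cell type markers; other probe sets are given where the sign differs, and for a few others. The glands, members and lists were chosen with earlier results of these data known. Alternatives tried were array weights, a fit without the variance trend, quantile or median scaling, different filters and floors, a single probe set for each gene, 1 estimate of the spread from all glands, single controls and leaving out each gland.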

Additional observations from a re-analysis of the deposited data

Results flagged for a closer look

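For 9 of the named genes every denervated gland lay on one side of its controls among the secretoglobin-poor glands and on the opposite side among the other glands. Zfp697, Ubtf, Rheb, Nos2 and Acta1 of these were named by p for the difference between sets. Their opposite sides are thus partly built into the choice and are no independent support. The 2 sets were made by a measured level. The limma test of the difference between sets passed for none of the 9 (adjusted p 0.826 or more, against 0 of 6118 probe sets passing and 180 at an unadjusted p under 0.05), and 64 of 6118 probe sets were separated in opposite directions. The log2 difference between the 2 contrasts, secretoglobin-poor minus other glands, was -5.02 for Acta1, -4.15 for Pvalb and -3.70 for Myh4, genes of skeletal muscle fibres. Acta1 read 329, 583 and 199 in denervated 1, 2 and 5, against 735 and 2004 in contralateral 1 and sham, and 1770 and 5090 in denervated 3 and 4, against 504, 348 and 215 in their controls. Actg2, an actin of smooth muscle, differed by 1.95.

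Nos2, the inducible nitric oxide synthase, differed by -3.46. It read 325, 634 and 440 in denervated 1, 2 and 5, against 1524 and 2036 in contralateral 1 and sham, and 771.7 and 568 in denervated 3 and 4, against 230, 362 and 148 in their controls. Zfp697 differed by -4.05. In the positive direction were Vegfa with 3.02, Ubtf, a factor of ribosomal RNA transcription, with 2.80, and Rheb, a GTPase that activates mTOR, with 4.33. Another Rheb probe set gave -0.42 in the secretoglobin-poor glands, and the other Vegfa probe sets gave -0.34 and -1.70 there.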

How the results depend on the processing

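No paired analysis was possible because the groups compared share only the number 1. The labels do not state whether denervated 1 and contralateral 1 came from the same animal. The fit treated them as independent, and the part of a shared animal in their likeness was not tested. The single-control fits are the same as leaving out the sham or contralateral gland. The count of probe sets past the threshold was 0 in each alternative run except array weights (1, Myl9), the fit over 4 classes (3) and leaving out denervated 1: over the glands left out in turn it ran from 0 to 296. For the difference between sets of glands it was 0 except with array weights (2) and from 0 to 55 over the glands left out, 55 without denervated 1. Median scaling moved the list medians of mitochondrial respiration to 0.21, of lipid and sterol synthesis to 0.12 and of heat shock genes to 0.065. No filter moved heat shock genes to -0.006, a filter at the 50th percentile moved lipid synthesis to -0.11 and the insulin-like growth factor system to -0.26, and a filter over the 5 glands moved lipid synthesis to -0.11.

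With denervated 1 alone against the 2 controls, list medians moved by more than the spread between glands to 0.27 for lacrimal and tear secretory proteins, -0.077 for salivary secretory proteins, -0.048 for ER chaperones and folding enzymes, -0.019 for rough ER translocation and glycosylation, -0.14 for exocytosis and vesicle traffic, -0.10 for MHC class I and interferon response, -0.10 for MHC class II, 0.26 for macrophage and monocyte markers, -0.011 for complement and -0.14 for mast cell markers. They moved to -0.58 for extracellular matrix and fibroblast, 0.15 for myoepithelial and smooth muscle, 0.18 for ion and water transport, 0.17 for ribosomal proteins, -0.041 for mitochondrial respiration, 0.17 for lipid and sterol synthesis, -0.21 for adipocyte markers, -0.019 for endothelial markers, 0.12 for blood cell genes, -0.30 for skeletal muscle genes and -0.065 for annexins and S100 proteins.

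Over the glands left out in turn, medians ran from -0.76 to 0.022 for T and natural killer cell markers, from 0.025 to 0.89 for annexins and S100 proteins, from -0.43 to 0.012 for autonomic receptors and signalling, from -0.30 to 0.32 for circadian clock, from 0.068 to 0.64 for duct and epithelial keratins, from -0.88 to 0.054 for endothelial markers, from -0.067 to 0.20 for heat shock, glutathione and antioxidant and from -0.11 to 0.25 for immediate early transcription factors. They ran from -0.21 to 0.26 for inflammatory cytokines and acute phase proteins, from -0.24 to 0.24 for insulin-like growth factor system, from -0.55 to -0.005 for ion and water transport, from 0.49 to 1.56 for lacrimal and tear secretory proteins, from -0.18 to 0.14 for lipid and sterol synthesis, from 0.029 to 0.13 for mitochondrial respiration and from -0.35 to 0.22 for nerve, myelin and Schwann cell.

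Among named genes, 15 values in all changed sign, none of them past the threshold. They were those of Fos (0.17 with array weights, -1.48 to 0.88 over the glands left out), Adra1a (0.71 with denervated 1 alone, -1.60 to 0.18 over the glands left out), Casp1 (-1.61 with denervated 1 alone, -1.05 to 1.24 over the glands left out), the second Chrm3 probe set given above (0.81 with denervated 1 alone, -1.09 to 0.36 over the glands left out), Klk1 (-2.53 to 0.037 over the glands left out), Vipr1 (0.20 with denervated 1 alone) and the first Chrm3 probe set given above (0.079 with denervated 1 alone). For Fos, Casp1 and Vipr1 these were other probe sets than the ones described first above. Over the glands left out, the Casp1 probe set described first ran from 2.15 to 3.44 and that of Vipr1 from -1.85 to -1.10. Another 37 values of named genes passed the threshold under an alternative, with their direction kept. The cause was not tested. For genes read at or under 156.2, signal over background limits the difference.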
